A study of Arabidopsis thaliana with 36 samples.

Results

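NLP2 and NLP7 belong to the NIN-like proteins, nitrate-responsive transcription factors of Arabidopsis thaliana, and the comparison described here asks what the nlp2-3 mutation adds in roots that already carry nlp7-1. Roots of the double mutant nlp2-3 nlp7-1 were set against roots of the single mutant nlp7-1, with 3 libraries a side, or 6 of the 36 libraries of the series. The libraries were chosen by genotype and tissue alone, and of 34218 counted features the 20486 that passed a filter on low counts were tested. Plants of both genotypes were 42 days old. They grew in sand culture with 5 mM nitrate, a supply the labels call non-limiting, after 3 days of stratification. Light lasted 8 h at 21 °C and dark 16 h at 18 °C. Both groups carry nlp7-1, so the comparison holds NLP7 disrupted on either side. The series design states 3 biological replicates, and the labels give neither the position of the mutations in the genes nor the number of plants behind a library. Col-4 is a name found in sample titles alone, since the field for the ecotype says Col-0 throughout, also for the libraries titled Col-4 and nlp2-2. Roots of Col-0, nlp2-3, Col-4 and nlp2-2, grown in the same way, are used to set the change beside the effect of losing NLP2 where NLP7 is intact. They also enter the fit, in which all 18 root libraries share the filter, the scaling and the estimate of spread. Shoots of the double mutant and nlp7-1 are compared in the same manner, in a fit of all 18 shoot libraries.

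NIN-like proteins bind nitrate-responsive promoters. In Arabidopsis NLP7 is held in the nucleus when nitrate is present, where it switches on genes of nitrate uptake, nitrate reduction and the supply of reductant and carbon skeletons, and it also regulates other transcription factors that carry the response further. NLP2 is a member of the same family and recognises an overlapping set of promoters. Low-oxygen genes, which form the strongest change below, are controlled in Arabidopsis by the group VII ethylene response factors: oxygen lets plant cysteine oxidases mark these factors for breakdown, and when oxygen is short the factors persist and switch on fermentation.

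The 6 libraries held 20229059 to 24858461 counts, and their 10 highest features took 3.15 to 3.33% of the counts. The replicates of a group differed by more than counting error, by 8.35 to 11.8 times its variance in the double mutant and 4.56 to 5.81 times in nlp7-1, so no library was a copy of another. Markers of leaf tissue summed to 67.1 to 119 CPM (counts scaled to a common effective library size) in double mutant roots and 84.2 to 111 CPM in nlp7-1 roots, against no less than 99185 CPM in the shoots of both genotypes, and none of the 16 tested leaf markers was called. NLP2 (AT4G35270) was read first, as the mutated gene. It stood at 50.1, 52.7 and 45.4 CPM in the double mutant and at 88.9, 90.5 and 101 CPM in nlp7-1. The double mutant libraries all lay below those of nlp7-1, 1.89-fold lower (log2 -0.92 ± 0.11 SE, adjusted p = 2.99e-05), and transcript of NLP2 remained in each. The Col-0 mean of 65.8 CPM lay between the groups, so the gap spans a level above Col-0 in nlp7-1 and one below it in the double mutant. NLP7 (AT4G24020) stood at 41.0, 41.3 and 41.5 CPM in the double mutant and at 31.9, 36.6 and 36.8 CPM in nlp7-1, against a mean of 103 CPM in Col-0. Its log2 difference between the mutants was 0.23 ± 0.10 (adjusted p = 0.203).

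Of the 20486 tested genes, 1334 (6.51%) were called, with an adjusted p under 0.05 by the quasi-likelihood F test of edgeR with Benjamini-Hochberg adjustment. Of these, 499 (2.44%) were higher and 835 (4.08%) lower in the double mutant, and 260 (1.27%) changed at least 2-fold. A log2 change below is that of the double mutant over nlp7-1 unless another pair is named, with its standard error, and adjusted p-values come from this test over all genes. The median log2 change over all tested genes was 0.01. Counts of called list members below are to be read against these shares over all tested genes. The count fell to 833 without nlp7-1 replicate 1 and to 824 without nlp7-1 replicate 2.

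Genes of the low-oxygen response were lower in the double mutant throughout the pathway, from sucrose cleavage and fermentation to oxygen sensing and its transcription factors. Of 20 listed genes 19 were tested, and 18 (94.7%) were called lower and 0 higher, with a median log2 change of -1.42 against 0.01 over all genes. The summed level of the list was 2438 to 2695 CPM in the double mutant, 5646 to 6429 CPM in nlp7-1, 4957 to 6295 CPM in nlp2-3 and 8343 to 8633 CPM in Col-0. The double mutant libraries lay below all of the others. The list was written with knowledge that low-oxygen genes are lower in these mutants, so its count is a description. In bulk root RNA, fewer cells of a type and less RNA per cell cannot be told apart.

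Fermentation genes were lower. ADH1 (AT1G77120), the alcohol dehydrogenase that turns acetaldehyde into ethanol, stood at 526, 524 and 578 CPM in the double mutant and at 1708, 1691 and 1352 CPM in nlp7-1. It was 2.92-fold lower (log2 -1.55 ± 0.14, adjusted p = 1.84e-06), with no overlap between the groups, which held for 27.3% of all tested genes. PDC1 (AT4G33070), the pyruvate decarboxylase that feeds ADH1, stood at 207, 197 and 249 CPM in the double mutant and at 830, 833 and 780 CPM in nlp7-1. PDC1 was 3.74-fold lower (log2 -1.903 ± 0.18, adjusted p = 6.13e-06), and its paralog PDC2 (AT5G54960) fell by 1.71 ± 0.13 on the log2 scale. Another route of anaerobic pyruvate use changed less: the lactate dehydrogenase gene AT4G17260 fell by 0.72 ± 0.07, and ALAAT1 (AT1G17290), an alanine aminotransferase, by 0.38 ± 0.08 (adjusted p = 0.00383).

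Sucrose synthases cleave sucrose without spending ATP, and SUS1 and SUS4 were lower. SUS1 (AT5G20830) stood at 167, 190 and 186 CPM in the double mutant and at 562, 559 and 447 CPM in nlp7-1, a log2 change of -1.53 ± 0.12 (adjusted p = 1.85e-07). SUS4 (AT3G43190) stood at 231, 248 and 279 CPM in the double mutant and at 848, 865 and 771 CPM in nlp7-1, a log2 change of -1.71 ± 0.16 (adjusted p = 3.2e-06). For both genes the 3 double mutant libraries lay far below the 3 nlp7-1 libraries. SUS3, a sucrose synthase outside the low-oxygen list, went the other way, at 10.3, 8.04 and 5.47 CPM in the double mutant and 4.04, 3.199 and 5.08 CPM in nlp7-1 (log2 0.95 ± 0.25, adjusted p = 0.023), a call that ended without replicate 1 or 2 of either genotype (adjusted p up to 0.123). HB1 (AT2G16060), the class 1 haemoglobin that scavenges nitric oxide when oxygen is short, stood at 120, 130 and 125 CPM in the double mutant and at 356, 372 and 313 CPM in nlp7-1 (log2 -1.47 ± 0.13, adjusted p = 1.26e-06).

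**Figure D1:**
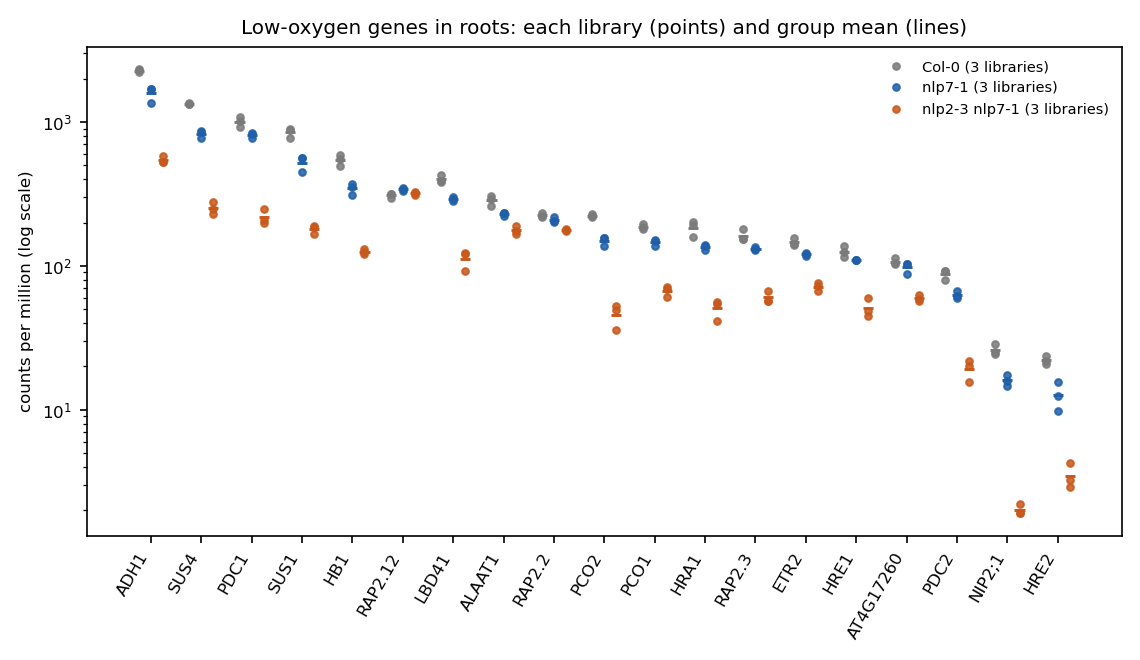
CPM of 19 low-oxygen genes in roots on a log axis, for 3 libraries each of Col-0, nlp7-1 and nlp2-3 nlp7-1 (points) with the group mean (lines), ordered by level in nlp7-1. The double mutant lies lowest for every gene but RAP2.12, and NIP2;1 shows the widest gap, from 15.9, 17.38 and 14.6 CPM in nlp7-1 to 1.904, 2.23 and 1.92 CPM.

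Among the oxygen sensors, PCO1 (AT5G15120) stood at 69.3, 61.0 and 71.7 CPM in the double mutant and at 152, 149 and 138 CPM in nlp7-1, a log2 change of -1.123 ± 0.09. PCO2 (AT5G39890) stood at 49.1, 35.9 and 52.2 CPM in the double mutant and at 156, 156 and 137 CPM in nlp7-1 (log2 -1.71 ± 0.16). Both encode plant cysteine oxidases and both are themselves induced when oxygen is low. The group VII factors changed by unequal amounts. HRE1 (AT1G72360) and HRE2 (AT2G47520), which are induced by low oxygen, fell by 1.112 ± 0.10 and 1.86 ± 0.22, and RAP2.3 (AT3G16770), not classed with them as induced by low oxygen, fell by 1.125 ± 0.08 on the log2 scale. RAP2.2 (AT3G14230), which is expressed constitutively, fell by 0.23 ± 0.05 (adjusted p = 0.00854), a call that ended without nlp7-1 replicate 2 (adjusted p = 0.0568). RAP2.12 (AT1G53910), also expressed constitutively, was the 1 tested gene of the list not called: it stood at 328, 311 and 323 CPM in the double mutant and at 331, 350 and 343 CPM in nlp7-1 (log2 -0.09 ± 0.06, adjusted p = 0.409).

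The remaining members are regulators and 1 channel. LBD41 (AT3G02550), a low-oxygen marker of the LOB domain family, stood at 122, 91.8 and 121 CPM in the double mutant and at 303, 293 and 284 CPM in nlp7-1 (log2 -1.40 ± 0.13). HRA1 (AT3G10040), a trihelix factor that restrains RAP2.12, changed by -1.42 ± 0.17, and the ethylene receptor gene ETR2 (AT3G23150) by -0.74 ± 0.08. NIP2;1 (AT2G34390), a channel for lactic acid, stood at 1.904, 2.23 and 1.92 CPM in the double mutant and at 15.9, 17.38 and 14.6 CPM in nlp7-1. It was 7.895-fold lower (log2 -2.98 ± 0.26, adjusted p = 1.61e-06), the widest gap of the list. Per transcript length, ADH1 stayed the most abundant member in both groups, at 345 ± 21.0 FPKM (SD, n = 3) in the double mutant and 991 ± 122 FPKM in nlp7-1. RAP2.12 stood second in the double mutant, at 196 ± 5.31 FPKM, and below HB1 (350 ± 30.2 FPKM), PDC1 (367 ± 12.3 FPKM) and SUS4 (296 ± 17.1 FPKM) in nlp7-1, where it was at 206 ± 6.43 FPKM.

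The group VII factors act through a promoter element, the hypoxia-responsive promoter element, searched here as AAACCA, any 3 bases and GC, on both strands in the 250 bases before and 50 bases after each gene start of RefSeq TAIR10.1. The letters were found at 3 of the 19 tested low-oxygen genes (15.8%), ADH1, NIP2;1 and PCO1, against 1.08% of 20078 promoters of tested genes. They were found at 17 of 820 promoters of genes called lower (2.07%) and at 3 of 496 of genes called higher (0.605%). The search allowed any base at 3 positions, so a match is looser than an element and need not be one. A match is a stretch of letters and not a measured binding site. The promoters of the most abundant low-oxygen gene and of the one with the widest gap, and the short stretch at PCO1, are given because they hold the match, 5′ to 3′ on the gene's strand, with the fixed letters of the match in capitals. The ADH1 stretch lies at chr1:28975005-28975254 on the plus strand and ends at the base before the gene start, the NIP2;1 stretch lies at chr2:14515989-14516238 on the minus strand and ends likewise, and the PCO1 stretch lies at chr5:4898642-4898668 on the plus strand, after the gene start, where the match reads in the reverse direction.
ADH1: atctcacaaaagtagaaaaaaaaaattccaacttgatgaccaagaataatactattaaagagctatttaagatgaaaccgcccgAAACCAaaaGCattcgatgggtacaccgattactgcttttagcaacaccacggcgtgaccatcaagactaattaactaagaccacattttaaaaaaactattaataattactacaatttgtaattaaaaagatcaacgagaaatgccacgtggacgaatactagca
NIP2;1: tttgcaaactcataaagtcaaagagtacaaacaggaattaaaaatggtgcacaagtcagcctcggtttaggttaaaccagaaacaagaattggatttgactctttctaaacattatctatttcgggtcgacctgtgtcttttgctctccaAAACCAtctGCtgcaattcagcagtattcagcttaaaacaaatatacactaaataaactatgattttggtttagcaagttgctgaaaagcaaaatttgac
PCO1: aaagaatgGCcccTGGTTTtgtaatcg

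NIN-like proteins themselves bind a nitrate-responsive element, searched as GACNCTT, any 10 bases and AAG, on both strands in the same windows. These letters were found at 0 of the 19 low-oxygen genes, 0 of 11 nitrate reduction genes and 0 of 24 nitrate transport genes, against 0.144% of the promoters of tested genes. That none matched says only that these letters are not in these windows.

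The nitrate and nitrite reductase genes NIA1, NIA2 and NIR1 were lower in the double mutant. All 11 tested genes of nitrate and nitrite reduction and their cofactors had negative log2 changes, with a median of -0.20, and 4 (36.4%) were called lower. NIA1 (AT1G77760), a nitrate reductase gene, stood at 354, 448 and 312 CPM in the double mutant and at 1078, 999 and 945 CPM in nlp7-1. It was 2.71-fold lower (log2 -1.44 ± 0.13, adjusted p = 1.06e-06), and no double mutant library came near the nlp7-1 range. NIA2 (AT1G37130), the other nitrate reductase gene, stood at 514, 504 and 438 CPM in the double mutant and at 773, 769 and 715 CPM in nlp7-1 (log2 -0.63 ± 0.11, adjusted p = 0.00142). NIR1 (AT2G15620), the nitrite reductase that takes the next step, stood at 630, 627 and 569 CPM in the double mutant and at 865, 831 and 804 CPM in nlp7-1 (log2 -0.45 ± 0.10, adjusted p = 0.00854). The fourth call, the molybdenum cofactor gene CNX1 (log2 -0.20 ± 0.06, adjusted p = 0.0389), was lost in 9 of 15 alternatives (adjusted p up to 0.159), among them without double mutant replicate 2 or 3 or nlp7-1 replicate 1 or 3.

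Genes that supply electrons and carbon to nitrate assimilation were lower in part. Of 20 tested pentose phosphate and root reductant genes 7 were called lower and 0 higher (median log2 -0.17). They include the root ferredoxin reductase RFNR2, at 514, 560 and 446 CPM in the double mutant and 704, 739 and 659 CPM in nlp7-1 (log2 -0.47 ± 0.10, adjusted p = 0.00521), and the root ferredoxin FD3 (log2 -0.33 ± 0.06). Of 25 tested genes of organic acid metabolism 7 were called lower and 1 higher (median -0.14), the latter lost without any 1 library but double mutant replicate 3. PPC3 (AT3G14940), a phosphoenolpyruvate carboxylase of roots, stood at 366, 341 and 317 CPM in the double mutant and at 593, 626 and 597 CPM in nlp7-1 (log2 -0.83 ± 0.08, adjusted p = 1.72e-06). PPCK2, the kinase that activates such carboxylases, changed by -0.74 ± 0.11. Of 26 tested glycolysis genes 8 were called lower and 1 higher (median -0.14), led by the cytosolic phosphofructokinase PFK3 (log2 -0.85 ± 0.09) and by GAPC2 (AT1G13440), a cytosolic glyceraldehyde phosphate dehydrogenase, which stood at 1815, 1868 and 1880.1 CPM in the double mutant and at 3010.1, 2999 and 2801 CPM in nlp7-1 (log2 -0.66 ± 0.06, adjusted p = 1.43e-06). The count of lower glycolysis genes fell to 5 without double mutant replicate 2 or nlp7-1 replicate 1 and to 4 without nlp7-1 replicate 2, and the higher gene was lost without double mutant replicate 1 or nlp7-1 replicate 2.

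Nitrate transport went both ways. Of 26 listed genes 24 were tested, 4 were called lower and 1 higher, and the median log2 change was 0.04. NRT2.4 (AT5G60770), a high-affinity carrier of nitrogen-starved roots, stood at 23.1, 22.3 and 21.4 CPM in the double mutant and at 14.7, 13.5 and 15.4 CPM in nlp7-1 (log2 0.61 ± 0.12, adjusted p = 0.00412). NRT3.1 (AT5G50200), the partner protein of the high-affinity carriers, stood at 113, 131 and 93.4 CPM in the double mutant and at 176, 183 and 171 CPM in nlp7-1 (log2 -0.65 ± 0.14, adjusted p = 0.00784). NPF7.3/NRT1.5 (AT1G32450), which loads nitrate into the xylem, stood at 77.2, 71.4 and 74.1 CPM in the double mutant and at 113, 109 and 101 CPM in nlp7-1 (log2 -0.54 ± 0.10, adjusted p = 0.00134). For these genes the 2 groups did not overlap. The other two called lower were the channel gene SLAH1 (log2 -1.20 ± 0.15) and the carrier NRT2.2 (log2 -1.86 ± 0.35), whose call ended in a fit of the compared groups alone (adjusted p = 0.0707).

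NRT2.1, the main inducible high-affinity carrier, stood at 459, 525 and 393 CPM in the double mutant and at 585, 612 and 621 CPM in nlp7-1 (log2 -0.40 ± 0.12, adjusted p = 0.0524). NPF6.3/NRT1.1, the dual-affinity carrier and nitrate sensor, stood at 317, 315 and 286 CPM in the double mutant and at 359.9, 363 and 401 CPM in nlp7-1 (log2 -0.29 ± 0.09, adjusted p = 0.0701). In both, the double mutant libraries lay below the nlp7-1 libraries, and neither was called. Both were called in 3 alternatives: with replicate number as a block (adjusted p = 0.0376 for NRT2.1 and 0.0321 for NPF6.3/NRT1.1), by DESeq2 (0.015 and 0.0344) and in a fit of the compared groups alone (0.0278 and 0.0142). Without double mutant replicate 2 that of NRT2.1 was 0.0267.

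Some other nitrate regulators, NLP genes among them, changed in the double mutant. Of 31 tested nitrate regulators 5 were called higher and 3 lower (median -0.05), with 3 higher without nlp7-1 replicate 1. NLP4 (AT1G20640) stood at 109, 107 and 110.1 CPM in the double mutant and at 73.8, 84.3 and 87.0 CPM in nlp7-1 (log2 0.41 ± 0.08, adjusted p = 0.00462). NLP5 (AT1G76350) stood at 51.03, 49.5 and 47.1 CPM in the double mutant and at 36.3, 34.9 and 35.6 CPM in nlp7-1 (log2 0.47 ± 0.07, adjusted p = 0.000142). NLP8 (AT2G43500), known for nitrate-promoted seed germination, stood at 20.4, 20.3 and 20.9 CPM in the double mutant and at 12.8, 12.8 and 13.5 CPM in nlp7-1 (log2 0.66 ± 0.10, adjusted p = 0.000185). All 3 were higher in every double mutant library than in any nlp7-1 library. NLP4 lies next to the raised stretch of chromosome 1 described last.

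NLP1 (log2 0.18 ± 0.07, adjusted p = 0.152), NLP3 (-0.15 ± 0.13, adjusted p = 0.565) and NLP6 (0.05 ± 0.07, adjusted p = 0.728) were not called; NLP1 was called without nlp7-1 replicate 3 (adjusted p = 0.0196). NLP9 was too low to test, at 0.410 to 0.756 CPM in the double mutant and 0.0464 to 0.148 CPM in nlp7-1. Per transcript length NLP6 was the most abundant NLP gene in the double mutant (53.5 ± 2.21 FPKM), followed by NLP4 (34.3 ± 0.645 FPKM), while NLP2 stood at 13.1 ± 0.931 FPKM and NLP8 at 6.06 ± 0.117 FPKM. Lower beside NLP2 were the bZIP factor TGA1 (AT5G65210), at 227, 223 and 223 CPM in the double mutant against 304, 326 and 321 CPM in nlp7-1 (log2 -0.50 ± 0.07), and ANR1 (AT2G14210), a MADS-box factor of lateral root growth in nitrate-rich patches, at 28.2, 34.3 and 22.3 CPM against 69.8, 82.5 and 59.4 CPM (log2 -1.32 ± 0.17, adjusted p = 0.000134). The other two called higher were NAC4 (log2 0.76 ± 0.18), whose call ended without double mutant replicate 1 or nlp7-1 replicate 1 (adjusted p up to 0.0872), and the kinase gene CPK32 (0.35 ± 0.08), whose call ended without double mutant replicate 2 or nlp7-1 replicate 1 (adjusted p up to 0.0970).

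NF-YA subunits, the DNA-binding part of the NF-Y complex and targets of a microRNA family that falls under nitrogen starvation, were higher. All 10 had positive log2 changes (median 0.57), and 5 (50%) were called higher. NF-YA10 (AT5G06510) stood at 30.8, 33.9 and 32.8 CPM in the double mutant and at 8.86, 11.8 and 11.04 CPM in nlp7-1, 3.07-fold higher (log2 1.62 ± 0.12, adjusted p = 1.04e-07). NF-YA2 (AT3G05690) stood at 72.3, 65.7 and 76.0 CPM in the double mutant and at 33.1, 34.4 and 32.3 CPM in nlp7-1 (log2 1.099 ± 0.09, adjusted p = 1.51e-07). For both the groups lay well apart. NF-YA3, NF-YA6 and NF-YA8 changed by 0.77 ± 0.09, 0.60 ± 0.11 and 0.53 ± 0.09, and the other 5 subunits stood between 0.22 and 0.63 without a call.

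**Figure D2:**
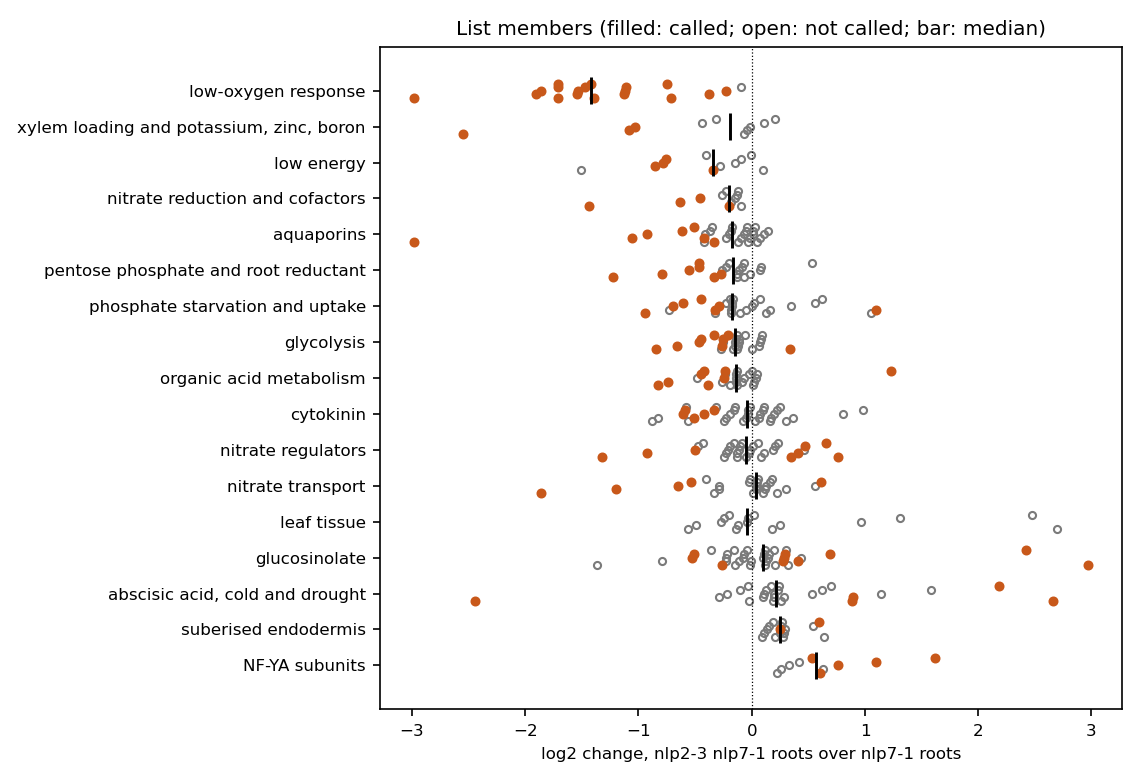
Log2 change of the double mutant over nlp7-1 in roots for each tested member of 17 gene lists, with filled points for called genes, open points for genes not called and a bar at the list median. Of the 17 lists drawn, low-oxygen genes lie lowest, with a median of -1.42, and NF-YA subunits highest, with a median of 0.57.

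UMAMIT36 (AT1G70260), of a family of amino acid exporters, stood at 2.29, 2.47 and 0.684 CPM in the double mutant and at 26.5, 26.5 and 20.4 CPM in nlp7-1, 13.3-fold lower (log2 -3.73 ± 0.26, adjusted p = 1.04e-07). It had the largest fall among called genes with a RefSeq symbol, at least 5 CPM on average and no overlap. HMA2 (AT4G30110), which pumps zinc towards the xylem, stood at 1.57, 5.33 and 2.92 CPM in the double mutant and at 16.2, 23.4 and 18.5 CPM in nlp7-1 (log2 -2.55 ± 0.28, adjusted p = 4.18e-05). The double mutant was far lower in every library for both. The UMAMIT family went both ways, with 4 of 35 tested genes called higher and 6 lower (median -0.01). UMAMIT19, which lies in the stretch of chromosome 1 described last, rose by 2.93 ± 0.37 from levels under 1 CPM. Of 10 tested genes of xylem loading and of potassium, zinc and boron transport 3 were called lower (median -0.19): besides HMA2, the sodium transporter HKT1 (log2 -1.08 ± 0.10) and the xylem potassium channel SKOR (-1.03 ± 0.18). None of 14 tested xylem markers (median -0.15) or 8 phloem markers (median -0.08) was called, although 12 of the 14 and 7 of the 8 had negative changes.

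Of 29 tested aquaporin genes 7 were called lower, NIP2;1 of the low-oxygen list among them, and 0 higher, with a median of -0.18 and 7 positive changes, and with the replicate block 11 were called lower. PIP2;3 (AT2G37180), a plasma membrane water channel, stood at 44.9, 52.5 and 48.0 CPM in the double mutant and at 90.0, 89.8 and 97.0 CPM in nlp7-1 (log2 -0.93 ± 0.11, adjusted p = 2.03e-05). PIP1A stood at 729.6, 720.1 and 625 CPM in the double mutant and at 1089, 1074 and 1024 CPM in nlp7-1 (log2 -0.62 ± 0.11, adjusted p = 0.00152). DUR3 (AT5G45380), the high-affinity urea carrier, went the other way, at 187, 185 and 139.9 CPM in the double mutant against 92.3, 86.4 and 88.0 CPM in nlp7-1 (log2 0.94 ± 0.10, adjusted p = 6.13e-06). It was the 1 called gene among 6 tested genes of ammonium and urea uptake.

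Of 20 tested salicylate and systemic defence genes 4 were called lower (median -0.14), or 2 without double mutant replicate 1 or 3 or nlp7-1 replicate 2 or 3, led by AZI1 (AT4G12470), a lipid transfer protein of systemic immunity, at 0.931, 1.27 and 0.730 CPM in the double mutant and 10.02, 12.2 and 10.6 CPM in nlp7-1 (log2 -3.46 ± 0.33, adjusted p = 5.44e-06). ALD1, which starts pipecolic acid synthesis, changed by -2.51 ± 0.52 (adjusted p = 0.00896). Of 36 tested glucosinolate genes 7 were called higher and 3 lower (median 0.10), and the count of higher genes fell to 4 without double mutant replicate 2 or 3 and to 3 without nlp7-1 replicate 1 or 2. The myrosinase TGG1 stood at 13.6, 5.61 and 6.48 CPM in the double mutant and at 1.01, 1.16 and 1.08 CPM in nlp7-1 (log2 2.97 ± 0.46, adjusted p = 0.000771), with double mutant replicate 1 the highest. CYP79B2, of indole glucosinolate synthesis, changed by 0.40 ± 0.07.

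Of 26 tested genes of abscisic acid, cold and drought 4 were called higher and 1 lower (median 0.22). RD29A, a marker of both stresses, stood at 87.8, 77.1 and 78.9 CPM in the double mutant and at 42.7, 49.0 and 40.6 CPM in nlp7-1 (log2 0.88 ± 0.12, adjusted p = 9.14e-05). The count of higher genes fell to 2 without double mutant replicate 3 or nlp7-1 replicate 1 or 3. Of 34 tested cytokinin genes 5 were called lower (median -0.04), with the nitrate-responsive synthesis gene IPT3 at 37.0, 41.5 and 40.4 CPM in the double mutant and 60.05, 57.9 and 63.5 CPM in nlp7-1 (log2 -0.61 ± 0.10, adjusted p = 0.001), and the count fell to 3 without double mutant replicate 2 and to 2 without nlp7-1 replicate 3. Of 11 tested flavonoid and anthocyanin genes 10 had positive changes (median 0.91), but 1 was called higher and 1 lower, or 4 higher with the replicate block. The higher call ended without replicate 1 or 3 of either genotype and the lower call without any 1 library. The auxin influx carrier LAX3 was higher (0.34 ± 0.05). All 16 tested genes of the suberised endodermis had positive changes (median 0.25), but 2 were called, or 5 with the replicate block and 1 without any 1 library but double mutant replicate 3. The summed level of the 17 listed genes was 1150.3 ± 88.4 CPM (SD, n = 3) in the double mutant and 997 ± 11.1 CPM in nlp7-1. The suberin exporter gene ABCG6 led them (log2 0.60 ± 0.13, adjusted p = 0.00827). Root hair markers summed to 364 to 559 CPM in the double mutant and 486 to 547 CPM in nlp7-1, and 1 of 18 was called (5.56%, near the 6.51% of all tested genes).

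The largest rise by the same criteria was that of ARP9 (AT5G43500), an actin-related protein, at 34.7, 42.2 and 43.0 CPM in the double mutant and 12.1, 12.3 and 12.3 CPM in nlp7-1, 3.27-fold higher (log2 1.71 ± 0.13, adjusted p = 1.04e-07). CLE4 (AT2G31081), a signalling peptide gene of roots, stood at 1.69, 2.03 and 2.14 CPM in the double mutant and at 11.8, 11.1 and 10.9 CPM in nlp7-1 (log2 -2.52 ± 0.19, adjusted p = 1.04e-07). BGLU18, a glucosidase that frees abscisic acid from its glucose ester, changed by -2.94 ± 0.55 (adjusted p = 0.00576). The drought factor DREB2A rose by 1.61 ± 0.33 (adjusted p = 0.0054), unevenly: it stood at 4.15, 15.01 and 8.07 CPM in the double mutant and 3.03, 3.11 and 2.81 CPM in nlp7-1. Its call ended in a fit of the compared groups alone (adjusted p = 0.153). Double mutant replicate 2 also had the highest level of WRKY40, at 7.74, 52.0 and 25.3 CPM in the double mutant and 12.6, 17.9 and 6.51 CPM in nlp7-1, with no call (adjusted p = 0.232).

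Loss of NLP2 where NLP7 is intact moved many of the same genes. The comparison of nlp2-3 with Col-0 roots, which shares no library with that of the double mutant, called 1401 genes (6.84%; 3.36% higher, 3.48% lower), and 620 of them changed in the same direction as in the double mutant against nlp7-1, which is 46.5% of the genes called with nlp7-1 on both sides and 44.3% of those called with NLP7 intact; 4 went in opposite directions. In nlp2-2 roots set against Col-4 roots 1458 genes (7.12%; 3.2% higher, 3.91% lower) were called, and 591 were shared in direction (44.3% and 40.5%), with 7 opposite. Across all tested genes the log2 changes correlated with r = 0.443 for nlp2-3 and 0.384 for nlp2-2, over genes that are not independent replicates. In all 3 comparisons 490 genes were called in the same direction, 125 higher and 365 lower. A further 606 genes were called in the double mutant against nlp7-1 and in neither of the other comparisons. That count depends on the threshold, and the signs of change of the 606 were not counted apart. Of all 1334 genes, the shared ones included, 92.4% had the same sign of change in nlp2-3 and 90.3% in nlp2-2, called there or not. In the test, given below, of a difference between the effects of nlp2-3 with and without nlp7-1, 25 of the 1334 were called. Standard errors are larger in that test, so few calls there do not show that the effects were alike.

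Low-oxygen genes were among those shared. In nlp2-3 against Col-0, 17 of the 19 were called lower, with a median of -0.66, and in nlp2-2 against Col-4, 18, with a median of -0.80, against -1.42 with nlp7-1 on both sides. NF-YA subunits were called higher in 8 of 10 in both (medians 0.90 and 0.64). UMAMIT36 changed by -3.45 ± 0.28 in nlp2-3 and by -3.74 ± 0.30 in nlp2-2, and HMA2 by -3.02 ± 0.26 and -2.83 ± 0.25.

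**Figure D3:**
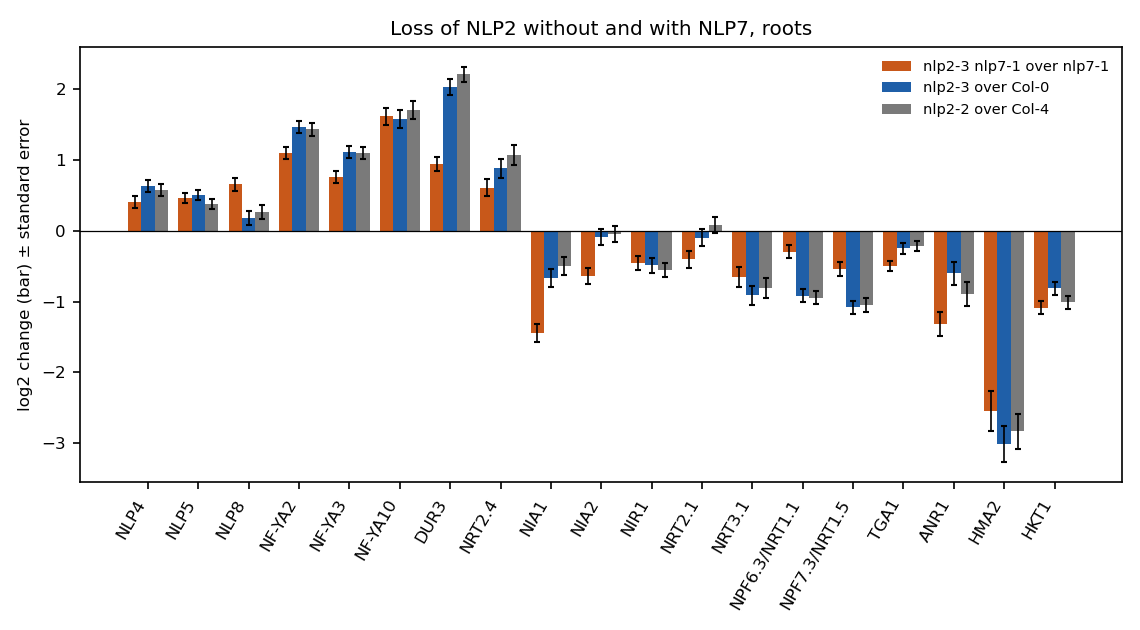
Log2 change of 19 nitrogen-related and ion transport genes in roots (bars) with its standard error, for the double mutant over nlp7-1, nlp2-3 over Col-0 and nlp2-2 over Col-4. NIA1 fell further with nlp7-1 on both sides (-1.44) than with NLP7 intact (-0.66 and -0.50), DUR3 rose furthest with NLP7 intact (2.03 and 2.21), and NF-YA10 and HMA2 changed by similar amounts in the 3 comparisons.

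Whether the effect of nlp2-3 differs between roots with and without nlp7-1 was tested as the difference of the log2 changes of the double mutant over nlp7-1 and of nlp2-3 over Col-0. It was called for 49 genes (0.239%), 13 (0.0635%) with a higher and 36 (0.176%) with a lower value in the nlp7-1 background. With the replicate block 77 were called. The count fell to 23 without nlp2-3 replicate 3 and to 27, 28 and 28 without nlp7-1 replicate 1, 2 or 3. Of the 19 low-oxygen genes 3 were called, all with a larger fall in the nlp7-1 background: NIP2;1 (-2.98 against -0.77, difference -2.21 ± 0.33, adjusted p = 0.00534), PCO1 (-1.123 against -0.42, difference -0.70, adjusted p = 0.0103) and HRE1 (-1.112 against -0.37, difference -0.74, adjusted p = 0.0293). The call of HRE1 ended in 11 of 21 alternatives (adjusted p up to 0.0929), among them without any 1 of the nlp7-1 replicates. The median difference over the list was -0.74, and most members were not called, among them PDC1 (-1.23 ± 0.25, adjusted p = 0.0554) and NIA1 of the nitrate reductases (-0.78 ± 0.18, adjusted p = 0.094).

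Other genes had a lower log2 change in the nlp7-1 background. DUR3 rose by 2.03 ± 0.11 in nlp2-3 over Col-0 and by 0.94 ± 0.10 in the double mutant over nlp7-1 (difference -1.09 ± 0.15, adjusted p = 0.0017). Its mean level was 21.2 CPM in Col-0, 86.7 in nlp2-3, 88.9 in nlp7-1 and 170.5 in the double mutant. GDH3, a glutamate dehydrogenase gene, changed by 0.85 ± 0.14 with NLP7 intact and by -0.37 ± 0.13 without it (difference -1.22, adjusted p = 0.00443). APS4, an ATP sulfurylase gene of sulfate assimilation, changed by 0.90 ± 0.08 and 0.11 ± 0.08 (difference -0.80, adjusted p = 0.00174), and LAS1, of lanosterol synthesis, by 1.49 ± 0.14 and 0.08 ± 0.14 (difference -1.42, adjusted p = 0.00174).

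Of 27 tested phosphate starvation genes 11 were called lower and 1 higher in nlp2-3, 11 lower and 0 higher in nlp2-2, and in the double mutant against nlp7-1 6 were called lower and 1 higher (medians -0.36, -0.29 and -0.17). Without nlp7-1 replicate 2 the counts here were 3 lower and 2 higher. IPS1, a non-coding RNA and sensitive marker of phosphate starvation, averaged 3.98 CPM in Col-0 and 0.509 in nlp2-3, and stood at 0.0482, 0.510 and 0.197 CPM in nlp7-1 and 0.889, 0.517 and 0.182 CPM in the double mutant. Its change was -2.96 ± 0.44 with NLP7 intact and 1.05 ± 0.60 without it (difference 4.01 ± 0.74, adjusted p = 0.0214), but at these low levels the call ended without nlp2-3 replicate 3, double mutant replicate 1 or 2, or nlp7-1 replicate 1 or 3, or in a fit of the compared groups alone (adjusted p up to 0.0931). PS2, a pyrophosphatase gene of the same response, changed by -0.71 ± 0.11 and 0.18 ± 0.11 (difference 0.90, adjusted p = 0.014), a call that ended without nlp2-3 replicate 3 or nlp7-1 replicate 3 (adjusted p up to 0.069). PHO2, which limits phosphate uptake, differed in the opposite direction (0.51 ± 0.08 and -0.11 ± 0.08, difference -0.62, adjusted p = 0.0118), a call that ended without nlp2-3 replicate 3 (adjusted p = 0.0514).

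In shoots of the same 2 genotypes 1530 of 19137 genes (7.99%) were called, 721 higher (3.77%) and 809 lower (4.23%), or 998 higher and 556 lower by limma on log2(FPKM + 1). Of the 1156 genes called in roots that were tested in shoots, 236 were called there, 202 in the same direction and 34 in the opposite direction. Low-oxygen genes were not lower as a group: of 17 tested 2 were called lower and 1 higher, with a median of -0.01. HB1 fell in shoots too (-1.75 ± 0.27, adjusted p = 0.000164), from a mean of 5.096 CPM to 1.52 CPM. SUS1 stood at 84.3 CPM in nlp7-1 shoots and 83.8 CPM in double mutant shoots. ADH1 stood at 6.26 and 5.57 CPM, far under its root level but not under the level at which the fall of HB1 was called. PDC1 stood at 0.776 and 0.917 CPM, so that little could be seen of it there.

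The difference between the tissues was called for 760 of 21554 genes (3.53%; 1.75% with a higher and 1.78% with a lower value in roots), and 9 of the 19 low-oxygen genes had a larger fall in roots, among them SUS1 (-1.53, adjusted p = 1.51e-08), PDC2 (-1.32, adjusted p = 2.5e-05) and ADH1 (-1.39, adjusted p = 0.0015). The opposite held for NLP2 itself, which was lower by 2.56 log2 units in shoots and 0.92 in roots (difference 1.63, adjusted p = 5.64e-09). NPF7.3/NRT1.5 was lower in roots and higher in shoots (0.72 ± 0.13, adjusted p = 0.00251, difference -1.27, adjusted p = 2.12e-05). DUR3 was higher in roots and lower in shoots (-0.50 ± 0.15, adjusted p = 0.0376, difference 1.43, adjusted p = 2.47e-05). The porphyrin methyltransferase gene UPM1, which serves the cofactor of nitrite reductase, fell by 1.303 in shoots and stood at -0.26 in roots (adjusted p = 0.102, difference 1.03, adjusted p = 0.00122). NIA1 and NIR1 were lower in both tissues (shoots -1.17 ± 0.22 and -1.03 ± 0.14), and NF-YA10 and NF-YA2 higher in both (shoots 1.22 ± 0.10 and 1.36 ± 0.11).

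**Figure D4:**
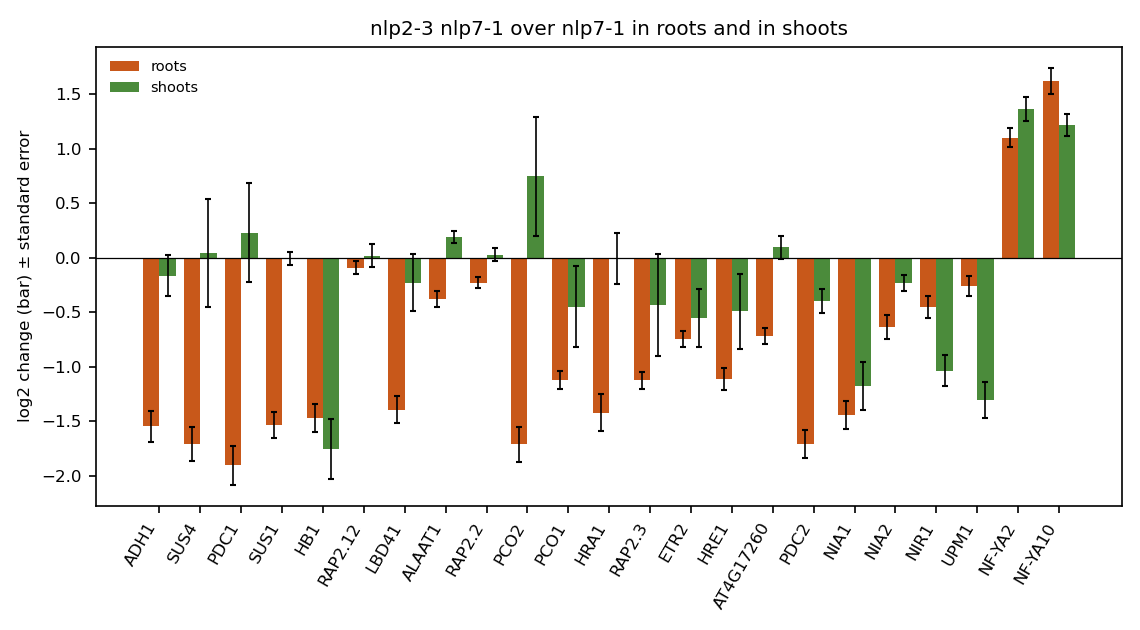
Log2 change of the double mutant over nlp7-1 in roots and in shoots (bars) with its standard error, for low-oxygen genes, nitrate reduction genes and 2 NF-YA subunits. SUS1 changed by -1.53 in roots and -0.01 in shoots, whereas NIA1, NIR1, NF-YA2 and NF-YA10 changed in the same direction in both.

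A stretch of neighbouring genes on chromosome 1 was higher in the double mutant in both tissues, and it was looked at after its values were seen. Of 454 tested genes with locus codes from AT1G21 to AT1G27, 62 (13.7%) were called higher and 7 (1.54%) lower, with a median log2 change of 0.18 and 78.9% above 0, whereas of all other 19989 tested nuclear genes 2.15% were called higher and 4.13% lower, with a median of 0.01 and 51.5% above 0. In shoots 120 of 433 genes (27.7%) of the stretch were called higher and the median was 0.23. Set against the Col-0 mean, the median log2 level of the stretch was 0.27, 0.04 and 0.09 in the 3 double mutant root libraries and between -0.04 and 0.02 in the other 15 root libraries. In nlp2-3 against Col-0 roots the median was -0.01, with 18 genes higher and 12 lower. Among the genes named above, NLP4 (AT1G20640) lies just before the stretch and ABCG6, NLP8 and the NF-YA genes lie elsewhere. The ends of the stretch were set after the values were seen, so NLP4 may belong to the raised region. The cause of the rise was not tested.

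**Figure D5:**
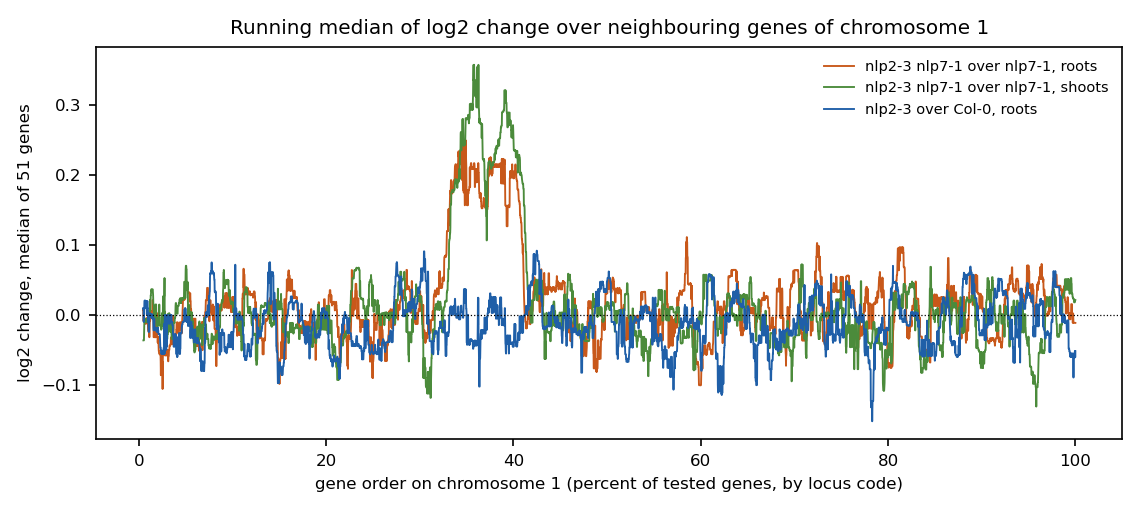
Running median of the log2 change over 51 neighbouring tested genes along chromosome 1, in gene order as a percent of tested genes, for the double mutant over nlp7-1 in roots and in shoots and for nlp2-3 over Col-0 in roots. It reaches 0.25 in roots and 0.36 in shoots within the stretch AT1G21 to AT1G27. In roots it lies between -0.11 and 0.11 outside the wider range AT1G20 to AT1G28, which also leaves out the flanks of the stretch.

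A shorter run was higher by a larger amount. Its ends were set after its values were seen, so its counts are a description. Outside this run and the stretch above, 2.15% of tested nuclear genes were called higher in roots and 3.2% in shoots. Of 9 tested genes from AT1G62770 to AT1G62870, 8 were called higher in roots, with log2 changes from 0.38 to 0.68, and 6 in shoots, while 0 of 9 were called in nlp2-3 against Col-0 (median -0.05). It holds the histone demethylase gene LDL1, at 27.5, 31.2 and 30.2 CPM in the double mutant and 17.8, 18.9 and 18.7 CPM in nlp7-1 (log2 0.68 ± 0.09), and the amine oxidase gene CuAO1, at 85.9, 81.2 and 97.3 CPM against 61.5, 53.8 and 54.5 CPM (log2 0.64 ± 0.08). Both were also called in the difference between the effects of nlp2-3 with and without nlp7-1 (0.73, adjusted p = 0.0151, and 0.72, adjusted p = 0.0098). The call of LDL1 there ended without double mutant replicate 2 or nlp7-1 replicate 1, in a fit of the compared groups alone and by limma without a filter (adjusted p up to 0.0662), and that of CuAO1 without nlp2-3 replicate 3 (0.0514).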

How the data were processed

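Total RNA of 18 root and 18 shoot libraries was sequenced, and HISAT2, HTSeq and TAIR10 appear in the submitters' processing notes; versions, gene models and strand setting are not given in the sources used here, so genes that overlap or share close copies are uncertain. The authors deposited raw counts per feature as whole numbers, and a table of FPKM, per the file headers, which follows from these counts, the column sums and 1 length per gene. Of 34218 features 32833 are locus codes, and 32548 were named from RefSeq TAIR10.1. Counts of all 18 root libraries were fitted in edgeR 4.0.16 (R 4.3.3): filterByExpr (minimum count 10, minimum total 15), TMM scaling, 1 mean per genotype, robust quasi-likelihood fit with 12 residual degrees of freedom, two-sided F test and Benjamini-Hochberg adjustment, with a gene called under 0.05. SE is the size of the log2 change over the square root of F. Shoots were fitted likewise, and both tissues together with 24 degrees of freedom. CPM use TMM-scaled library sizes. The method was checked on simulated counts.

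Alternatives were DESeq2 1.42.0, RLE size factors, limma 3.58.1 on log2(FPKM + 1) or + 0.1 with and without a filter at a mean of 0.5 FPKM, a mean filter of 1 CPM, no filter, the compared groups alone, a replicate block, and each replicate left out. Same-numbered double mutant and nlp7-1 libraries deviated together from their group means (r = 0.189, 0.331 and 0.102), and all 6 matched best with their own number, so the block is given where it changes a call. Named genes are NLP1 to NLP9, 12 nitrate and low-oxygen genes, up to 10 called genes a direction by size of change (symbol, at least 5 CPM, no overlap), up to 6 called members a list, and up to 6 genes a direction in the 2 tests of differences; members of the low-oxygen, aquaporin, nitrate and family lists beyond these, and list members called in the difference tests, were named after their values were seen. Of the names put on lists 717 were found and 29 left out. Comparison and lists were chosen with earlier results of these data known.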

Additional observations from a re-analysis of the deposited data

Results flagged for a closer look

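Differences between the effects of nlp2-3 with and without nlp7-1 were called for 49 genes of the roots. On the log2 scale the value in the nlp7-1 background was higher for ARP9 (1.27), ESC (0.80), PS2 (0.90), LDL1 (0.73), CuAO1 (0.72) and IPS1 (4.01). It was lower for AZI1 (-2.36), NIP2;1 (-2.21), BAM5 (-2.71), CYP76G1 (-1.56), LAS1 (-1.42), CYP712A2 (-1.41), CLE4 (-1.24), GDH3 (-1.22), DUR3 (-1.09), GLN1;4 (-1.02), APS4 (-0.80), HRE1 (-0.74), PCO1 (-0.70) and PHO2 (-0.62). ARP9 rose in nlp2-3 (0.44 ± 0.13) and fell in the other allele, nlp2-2 against Col-4 (-0.56 ± 0.13, adjusted p = 0.00881). ESC, a DNA-binding AT-hook gene just before the raised stretch of chromosome 1, stood at 47.9, 34.7 and 31.5 CPM in the double mutant, 24.7, 24.2 and 26.3 CPM in nlp7-1 and a mean of 80.3 CPM in Col-0. These calls were lost in 14 of 21 alternatives for CLE4 and GLN1;4, in 12 for BAM5, 11 for HRE1, 9 for AZI1, 7 for ESC, 6 for IPS1, 4 for LDL1, 2 for PS2 and 1 for CuAO1 and PHO2, mostly with 1 library left out. Leaving out any 1 nlp7-1 library ended those of CLE4, GLN1;4, BAM5, HRE1, AZI1 and ESC. BAM5 and IPS1 rest on levels under 1 CPM in the double mutant.

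Differences between roots and shoots in the change of the double mutant over nlp7-1 were called for 760 genes. The root change was lower than the shoot change for the low-oxygen genes PCO2 (-2.47), PDC1 (-2.13), SUS1 (-1.53), HRA1 (-1.43), ADH1 (-1.39), PDC2 (-1.32), LBD41 (-1.17), AT4G17260 (-0.82) and ALAAT1 (-0.58). It was lower for the aquaporins NIP1;1 (-2.003), PIP2;3 (-1.36), PIP2E (-0.88), TIP1;1 (-0.71), PIP2;5 (-0.58), PIP1A (-0.55), PIP1B (-0.45) and PIP2A (-0.42), and for NPF7.3/NRT1.5 (-1.27). It was higher for NLP9 (2.84), NLP2 (1.63), DUR3 (1.43), NPF2.13/NRT1.7 (1.19), UPM1 (1.03), NLP3 (0.79), NPF1.2/NRT1.11 (0.77), NLP8 (0.66) and LBD37 (0.59). Of these calls, that of PDC1 was lost in 12 of 21 alternatives, of NLP3 in 10, PIP2A in 9, PCO2 in 8, LBD41 in 6, NIP1;1 in 5, NLP9 and PIP1B in 2, and HRA1, LBD37 and PIP1A in 1. NLP9 was too low to test in the root fit, and PDC1 averaged 0.917 CPM in double mutant shoots and 0.776 CPM in nlp7-1 shoots. The differences of NLP9 and PDC1 therefore rest on few counts in 1 tissue.

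Among genes with a symbol and at least 5 CPM on average, the widest such differences were those of DIN2 (-7.82), ABCA8 (-4.94), scpl3 (-4.65), SPP1 (-4.32), OSM34 (-3.53) and KTI1 (-3.24), and in the other direction WRKY40 (3.67), CER4 (2.79), CML37 (2.76), ST4C (2.49), PDC3 (2.47) and SZF1 (2.23). In shoots DIN2, ABCA8, scpl3 and SPP1 averaged 1.204 CPM or less in the double mutant and 0.0233 CPM or less in nlp7-1, so their fitted values depend on the prior count. PDC3 averaged 0.129 CPM in double mutant shoots and 0.635 CPM in nlp7-1 shoots, and ST4C 0.0703 and 0.397 CPM. Neither was called in roots (adjusted p = 0.451 and 0.96). CER4 averaged 0.295 CPM in double mutant shoots, and OSM34 and KTI1 0.410 and 0.562 CPM in nlp7-1 shoots. These differences too rest on few counts in shoots. WRKY40, CML37 and SZF1 were highest in double mutant root replicate 2, at 52.0, 26.0 and 224 CPM, and without it their calls ended (adjusted p = 0.081, 0.129 and 0.162), and they ended in 8, 11 and 13 of 21 alternatives in all.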

How the results depend on the processing

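Of 210 called genes or differences that the text or its lists name, 124 were called under every alternative run and 86 lost the call in at least 1; 2 reversed, the tissue differences of ABCA8 (0.50, called) and scpl3 (0.058) by limma on log2(FPKM + 1), with and without its filter. The count of 1334 was 824 to 1074 with 1 replicate left out, with 833 without nlp7-1 replicate 1 and 824 without replicate 2. The replicate block gave 1730 and DESeq2 1773. The 49 differences became 149 by DESeq2, 77 with the block and 23 to 67 with 1 replicate left out. The block also called NRT2.1 and NPF6.3/NRT1.1 (adjusted p = 0.0376 and 0.0321) and ended the difference of GLN1;4 (0.0542), and it changed no other call of a named gene. It moved counts of lower genes from 3 to 11 for iron, 2 to 5 for ammonium assimilation and 2 to 4 for WRKY genes, and of higher genes from 1 to 4 for flavonoids and 2 to 4 for heat shock. For nlp2-3 against Col-0 the compared groups alone gave 659, and leaving out a replicate 855 to 1439 (855 and 905 without nlp2-3 replicate 1 or 3). For nlp2-2 against Col-4 the range was 846 to 1395 (846 and 931 without nlp2-2 replicate 2 or 1, 907 without Col-4 replicate 3). In shoots it was 921 to 1185 (921 without nlp7-1 replicate 1, 965 without double mutant replicate 2). The 760 tissue differences became 1154 by DESeq2 and 543 to 742 with 1 replicate left out. The cause of these shifts was not tested. Low-oxygen genes called lower numbered 17 or 18 under all alternatives. Genes under 1 CPM rest on few counts.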
